A study of Mus musculus with 2 samples.

Results

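The small nucleolar RNAs (snoRNAs) and small Cajal body RNAs (scaRNAs) counted in GFP-positive cells sorted from mouse skin are described here. They were taken as every gene whose symbol begins with Snora, Snord or Scarna followed by a digit, which gave 39 Snora, 101 Snord and 9 Scarna genes among the 50559 genes of both deposited files. The cells came from dorsal skin of Polr2b.fl.fl.GFP; K14Cre mice at postnatal day 21, in the resting phase of the hair cycle. Polr2b is the gene of the second-largest subunit of RNA polymerase II, and both of its alleles are floxed. The Cre recombinase is driven by the keratin 14 promoter, which is active in basal epidermis and in the follicle cells derived from it. Live GFP-positive cells were sorted after enzymatic digestion, and their total RNA was depleted of ribosomal RNA and sequenced with paired reads of 150 bases. The series has 1 group of 2 libraries, with no control genotype beside it, so the extent of deletion cannot be read from these data and the members are described across genes and between both libraries, given as replicate 2 and replicate 1.

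snoRNAs guide the chemical modification of other RNAs in the nucleolus. Box C/D snoRNAs, the Snord genes, direct the methylation of ribose, and box H/ACA snoRNAs, the Snora genes, direct the conversion of uridine to pseudouridine, mostly in ribosomal RNA. A few of them, such as U3 and U8, serve in the cleavage of the ribosomal precursor instead. scaRNAs carry the same boxes and guide modification of the spliceosomal small nuclear RNAs in Cajal bodies. In mammals most of these RNAs lie in introns of host genes and are trimmed from the excised intron, and the hosts are often genes of ribosomal proteins and translation factors or noncoding genes named Snhg.

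The sequences of members that led the H/ACA and box C/D classes, and of pairs that turn up again in the results, are shown first because the boxes define the classes. They are GENCODE release M21 transcripts, written in DNA letters 5′ to 3′. Capitals mark the ACA triplet that stands 3 bases from the 3′ end of H/ACA RNAs. The first of them are H/ACA RNAs, of which Snora23 was the most abundant member and Snora73a and Snora73b are copies of the RNA known as U17. Snora81, also abundant, has no ACA at that place in its GENCODE model and so no capitals.
Snora23: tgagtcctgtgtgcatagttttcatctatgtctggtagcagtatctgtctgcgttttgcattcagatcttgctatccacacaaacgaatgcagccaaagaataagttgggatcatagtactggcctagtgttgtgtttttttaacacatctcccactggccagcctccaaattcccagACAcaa
Snora73a: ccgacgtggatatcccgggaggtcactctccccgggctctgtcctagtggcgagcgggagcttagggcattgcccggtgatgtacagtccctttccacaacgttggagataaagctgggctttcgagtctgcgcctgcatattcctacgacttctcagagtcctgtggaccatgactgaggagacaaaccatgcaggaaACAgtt
Snora73b: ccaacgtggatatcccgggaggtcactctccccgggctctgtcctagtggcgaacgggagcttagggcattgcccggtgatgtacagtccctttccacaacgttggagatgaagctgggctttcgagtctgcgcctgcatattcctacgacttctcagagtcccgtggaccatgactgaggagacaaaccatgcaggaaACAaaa
Snora81: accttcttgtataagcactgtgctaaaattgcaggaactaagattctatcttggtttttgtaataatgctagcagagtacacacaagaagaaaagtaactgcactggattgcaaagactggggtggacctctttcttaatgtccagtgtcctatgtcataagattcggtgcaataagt
In the box C/D RNAs that follow, capitals mark the C box letters TGATGA within the first 30 bases and the D box CTGA within the last 20 bases. Snord17 was the most abundant of them with a sequence at hand, Snord118 is the U8 RNA, Snord15a and Snord15b share a host, and Snord85 was the most abundant Snord gene with a deposited length under 100 bases. Snord118 and Snord85 hold no TGATGA in that window. Snord104 was higher in replicate 2.
Snord17: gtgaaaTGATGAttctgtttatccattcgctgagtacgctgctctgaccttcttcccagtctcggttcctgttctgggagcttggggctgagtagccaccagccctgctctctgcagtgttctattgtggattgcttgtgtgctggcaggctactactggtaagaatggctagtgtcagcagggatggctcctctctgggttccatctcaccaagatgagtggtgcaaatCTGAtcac
Snord118: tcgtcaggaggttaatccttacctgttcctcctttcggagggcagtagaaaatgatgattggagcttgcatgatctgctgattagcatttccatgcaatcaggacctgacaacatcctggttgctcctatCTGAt
Snord15a: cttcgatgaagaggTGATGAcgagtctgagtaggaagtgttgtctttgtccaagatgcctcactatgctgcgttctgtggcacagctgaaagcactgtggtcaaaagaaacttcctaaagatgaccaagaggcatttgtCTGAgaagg
Snord15b: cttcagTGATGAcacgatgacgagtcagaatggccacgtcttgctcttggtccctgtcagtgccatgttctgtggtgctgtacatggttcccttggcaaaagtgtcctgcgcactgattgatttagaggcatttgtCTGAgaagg
Snord85: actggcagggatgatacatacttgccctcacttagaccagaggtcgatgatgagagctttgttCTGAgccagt
Snord104: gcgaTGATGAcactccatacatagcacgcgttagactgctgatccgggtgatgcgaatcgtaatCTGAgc
In the RefSeq table of GRCm38.p6, Snora23 lies on chromosome 7, Snora73a and Snora73b on chromosome 4, Snora81 on chromosome 16, Snord17 on chromosome 2, Snord118 and Snord104 on chromosome 11, Snord15a and Snord15b on chromosome 7, and Snord85 on chromosome 4. The counts were made on mm39, for which no genome was at hand, so no coordinates are given.

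The class names matched the boxes in the sequences. A single GENCODE sequence was found for 137 members. TGATGA was present within the first 30 bases of 66 of 91 Snord and 0 of 37 Snora sequences, and CTGA within the last 20 bases of 89 of 91 Snord and 3 of 37 Snora sequences. An ACA triplet 3 bases from the end was found in 31 of 37 Snora and 0 of 91 Snord sequences. Among the 9 Scarna sequences, 4 held both C/D motifs and 2 held the ACA. Only the strand of the RNA was searched, and a missing motif says no more than that these letters were not in these windows.

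Replicate 2 held 33489967 counts and replicate 1 held 36692204. Levels are given as CPM, counts scaled to the library total, per library or as mean ± SD with n = 2. A count of 1 in replicate 2 was 0.0299 CPM and in replicate 1 0.0273 CPM. All 6 keratinocyte markers were at 1 CPM or more in both libraries, but so were all 6 fibroblast and all 6 macrophage markers. The summed keratinocyte markers were 14044 CPM in replicate 2 and 9797 CPM in replicate 1, the fibroblast markers 6433 and 12996 CPM, and the macrophage markers 6569 and 6090 CPM. The RNA was thus mixed, and the levels given here are those of the whole sorted sample, not of keratinocytes alone. Endothelial markers summed to 32.8 and 51.0 CPM and melanocyte markers to 13.6 and 24.4 CPM, while no T cell or neuron marker reached 1 CPM, with Trac and Snap25 at 0. Xist, the RNA of the inactive X chromosome, had 11 counts in replicate 2 and 112587 in replicate 1, while the Y-linked Uty had 2394 and 0. The Y-linked Ddx3y and Kdm5d also had no count in replicate 1. These genes mark replicate 1 as female and replicate 2 as male, so every ratio between the libraries is also one between the sexes. Neither the sex nor the number of animals behind each library is in the labels, and p-values between the libraries measure only their own counting error. In bulk RNA, fewer cells of a type and less RNA per cell cannot be told apart.

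The members together made up a small share of the libraries, carried by a few abundant RNAs. They held 308 CPM in replicate 2 (exact Clopper-Pearson 95% interval 302 to 314) and 379 CPM in replicate 1 (373 to 386). Intervals here cover the counting error of reads only. Reads amplified by PCR and carrying no molecular identifier need not stand for separate molecules, so even that error can be larger than shown. H/ACA RNAs had the largest part, with 165 CPM in replicate 2 and 221 CPM in replicate 1. Box C/D RNAs held 113 CPM in replicate 2 and 132 CPM in replicate 1, although they outnumbered the H/ACA genes, and the scaRNAs held 29.9 and 25.5 CPM. The 6 most abundant members, Snora23, Snora73b, Snord3a, Snord17, Snora81 and Snora73a, took 66.5% of all member counts in replicate 2 and 71.7% in replicate 1.

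Levels of most members were low. No count in either library was found for 37 members (24.8%, beside 35.2% of all genes and 68.6% of the other genes up to the longest member's deposited length of 275 bases), while 26 had 1 to 9 counts in total and 86 had 10 or more. At 1 CPM or more in both libraries, 30 members were called detected, or 20.1%, against 31.3% of all genes. Among the 5315 other genes of 275 bases or less, 118 passed the same threshold, which is 2.22%. By class, 15 of 39 Snora, 11 of 101 Snord and 4 of 9 Scarna genes were detected. The median Snora level was 0.418 CPM in replicate 2 and 0.409 CPM in replicate 1. The median Snord level was 0.149 and 0.164 CPM. On the log2(CPM + 0.5) scale the Snora median stood 0.48 ± 0.03 above the Snord median, in the same direction in both libraries. The size of this difference depended on the pseudocount, at 1.00 with a pseudocount of 0.1 and 0.29 with 1, and it was 0.30 without the Snord116 copies, an alternative chosen after seeing the data. A sign-flip test over 2 libraries cannot give a p below 0.5, so none is given.

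**Figure D1:**
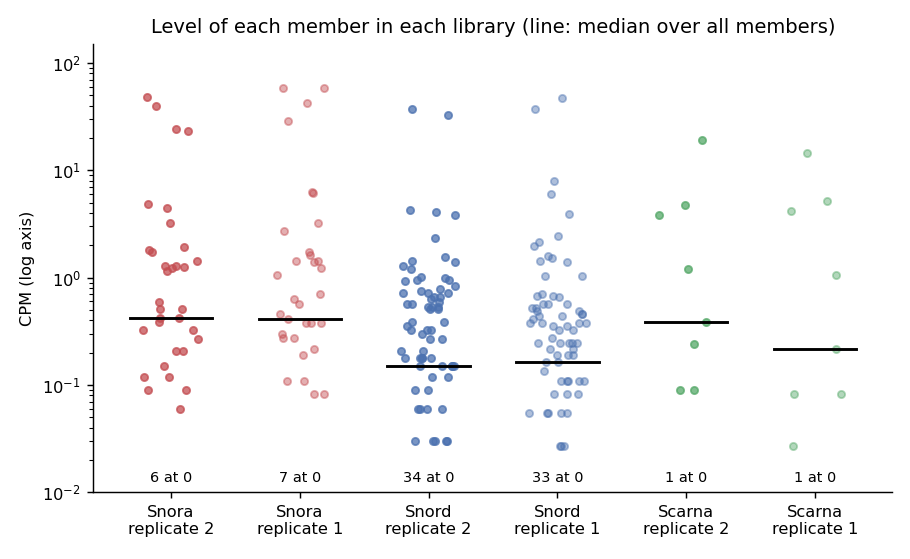
CPM of every member (points, log axis) in each library by class, with the median over all members of the class as a line and the number of members without a count printed at the bottom. The Snora medians of 0.418 and 0.409 CPM stand above the Snord medians of 0.149 and 0.164 CPM, and a few members of each class lie far above the rest.

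Among the H/ACA RNAs, 4 stood apart from the others. Snora23 had 48.0 CPM in replicate 2 and 58.6 CPM in replicate 1. Snora73b had 39.7 CPM in replicate 2, against 58.1 CPM in replicate 1, and its copy Snora73a had 24.0 and 28.6 CPM. U17, which Snora73a and Snora73b encode, takes part in the processing of 18S ribosomal RNA and is not known for guiding a modification. The sequences printed above differ by 7 single-base edits over 205 bases, which is 96.6% identity, so the split of reads between the copies is uncertain. Their sum, which does not depend on that split, was 63.7 CPM in replicate 2, against 86.7 CPM in replicate 1. Snora81 followed with 23.1 CPM in replicate 2, against 42.4 CPM in replicate 1, and it also has a near copy among the annotated small RNAs.

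A step of several-fold separated those 4 from the remaining Snora genes. The next were Snora74a, known as U19, at 5.53 ± 0.893 CPM and Snora28 at 5.36 ± 1.29 CPM. Snora31, which lies in the gene of the translationally controlled tumour protein Tpt1, had 2.98 ± 0.394 CPM, and Snora68 had 2.47 ± 1.05 CPM. Snora3 at 1.83 ± 0.118 CPM and Snora78 at 1.73 ± 0.132 CPM completed the first 10. The other 29 Snora genes lay between 0 and 1.35 CPM, and 6 of them had no count.

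Box C/D RNAs were led by Snord3a, the mouse U3 RNA. U3 is the most abundant snoRNA in most vertebrate cells and directs the early cleavages of the ribosomal precursor. It had 36.9 CPM in replicate 2 and 47.3 CPM in replicate 1. The other 6 U3 rows, named Snord3b, ranged from 0 to 0.341 CPM, and 2 of them had no count. Among these rows, Snord3b-ps1, which had no count, and Snord3b-ps2 are named as pseudogenes. U3 is encoded by several gene copies in the mouse, and how reads were split between these rows is uncertain. Snord17, a long box C/D RNA, came next with 33.0 CPM in replicate 2, against 37.0 CPM in replicate 1.

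The other RNAs of ribosomal precursor processing were much lower. Snord118, the U8 RNA needed for 5.8S and 28S ribosomal RNA, had 4.27 CPM in replicate 2, against 7.99 CPM in replicate 1, and it has a near copy. Snord13, the U13 RNA, had 1.55 CPM in replicate 2 and 1.53 CPM in replicate 1. The 4 Snord14 genes encode U14, which both guides a methylation in and helps to process 18S ribosomal RNA. Their sum was 1.43 CPM in replicate 2, against 1.39 CPM in replicate 1. Snord22, the U22 RNA, had 6 counts in each library.

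Most of the remaining Snord genes are known or presumed guides of single methylations. Snord94, which guides the U6 small nuclear RNA, had 4.91 ± 1.58 CPM, and Snord15a had 3.98 ± 0.116 CPM. Snord85, Snord89, Snord15b and Snord96a lay between 2.16 and 1.34 CPM. Of all 88 Snord genes with a deposited length under 100 bases, 6 were detected, 28 had no count, and none exceeded 2.16 CPM.

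The scaRNAs held 1 abundant member. Scarna2, a guide for the U2 small nuclear RNA, had 19.3 CPM in replicate 2 and 14.6 CPM in replicate 1. Scarna10, known as U85 and a guide for the U5 small nuclear RNA, had 4.99 ± 0.303 CPM. Scarna13 had 4.0 ± 0.246 CPM and Scarna9 1.13 ± 0.093 CPM. The other 5 were at 0.303 CPM or less, and Scarna6 had no count in either library. Terc, the telomerase RNA, ends in an H/ACA domain and resides in Cajal bodies but is no member by name. It stood at 1.82 ± 0.641 CPM.

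The longest members held most of the counts. The members of 150 bases and over in the files numbered 17 and held 216 of the 308 CPM in replicate 2 and 285 of the 379 CPM in replicate 1. Of the 96 members under 100 bases, 10 were detected, against 11 of 36 from 100 to under 150 bases and 9 of 17 at 150 bases and over. Across all members Spearman's rho of mean CPM with deposited length was 0.18, and across the 86 with 10 or more counts it was 0.32. Per kilobase of deposited length, over all members, rho was 0.051. These are descriptions of genes that share libraries and hosts, and no p-value is attached.

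Many deposited lengths were shorter than the GENCODE models. For all 142 members found in the RefSeq table of GRCm38.p6, the deposited length equalled the RefSeq length. GENCODE models were at least 10 bases longer than the deposited length for 65 members. The largest gaps were those of Scarna2, with 61 bases in the files and 414 in GENCODE, and Scarna10, with 71 and 325. Counts of such members come only from reads that reach the shorter window. By GENCODE length, 9 of the 10 members of 150 bases and over were detected, with a median of 21.6 CPM. That compares with 13 of 45 from 100 to under 150 bases and a median of 0.304 CPM, and with 5 of 82 under 100 bases and a median of 0.0986 CPM. Scarna6, at 265 bases, was the exception at the long end. The sources used here give no fragment sizes, and the part of fragment size in this order was not tested.

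**Figure D2:**
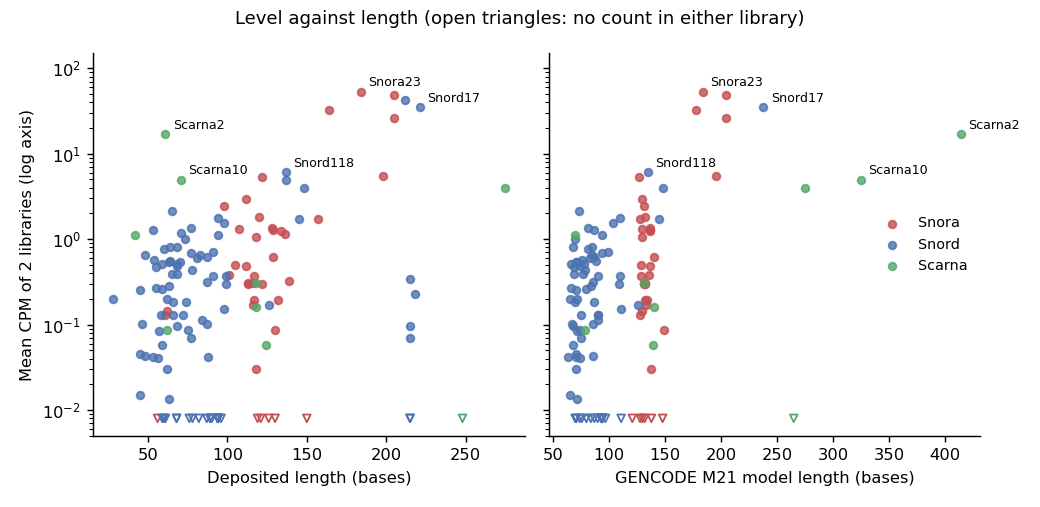
Mean CPM of 2 libraries (log axis) against the deposited length (left) and the length of the GENCODE model (right) in bases, with 1 point per member and open triangles for members without a count. The points of Scarna2 and Scarna10 move from 61 and 71 bases on the left to 414 and 325 bases on the right, and 9 of the 10 members of 150 or more bases on the right are detected.

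Each member was then set beside the gene that contains it. In the RefSeq table of GRCm38.p6, 129 members lay inside exactly 1 protein-coding or long noncoding gene, 9 inside more than 1, and 4 inside none, among them Scarna2, Snord118 and Snord13. The single hosts numbered 81 genes. Levels per kilobase are compared here, and a fragment that overlaps a short window counts in full, which raises the value of short genes. The counting cannot separate the finished snoRNA from the unspliced host intron that still holds it.

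Some members far exceeded their hosts. Snora73b had 239 CPM per kilobase and Snora73a 128 CPM per kilobase, against 8.14 CPM per kilobase for their noncoding host Snhg3. Both overlap an exon of a spliced model in GENCODE M21, so reads of a spliced transcript may also be counted on them. Snora23 had 290 CPM per kilobase, against 28.0 for the nuclear import gene Ipo7, and Snora81 had 200, against 33.4 for the translation initiation gene Eif4a2. Scarna13 stood at 14.5 CPM per kilobase and its host Snhg10 at 1.03. Over deposited lengths of only 71 and 42 bases, Scarna10 had 70.3 beside Ncapd2 at 8.48, and Scarna9 had 26.9 beside Cep295 at 2.71. Snora74a had 27.9 beside Snhg4 at 4.47. Snord17 had 158 CPM per kilobase, close to its host Snx5 at 137. Ribosomal protein genes, taken as names of Rpl or Rps followed by a digit, were the single hosts of 25 members with 10 or more counts. All 25 were below their host. Their ratios to the host per kilobase had a median of 0.021 and reached 0.485 for Snord72 in Rpl37. Snora70 stood at 9.90 CPM per kilobase beside Rpl10 at 1047, and Snord15a at 26.9 beside Rps3 at 77.5. In the other measured hosts 14 of 47 members were above the host, and the median ratio was 0.423. Those 47 include Snora52 in the ribosomal protein gene Rplp2, which the name rule misses, at 9.37 beside 266 CPM per kilobase. Snora31 stood at 26.6 CPM per kilobase beside Tpt1 at 904. Over 72 members with 10 or more counts and a single measured host, the median ratio of member to host was 0.216, and 14 members were above their host. Across the 73 single-host members with 10 or more counts, 1 of them in a host without counts, rho between member and host level per kilobase was 0.08. Several members share a host, so these points are not independent.

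**Figure D3:**
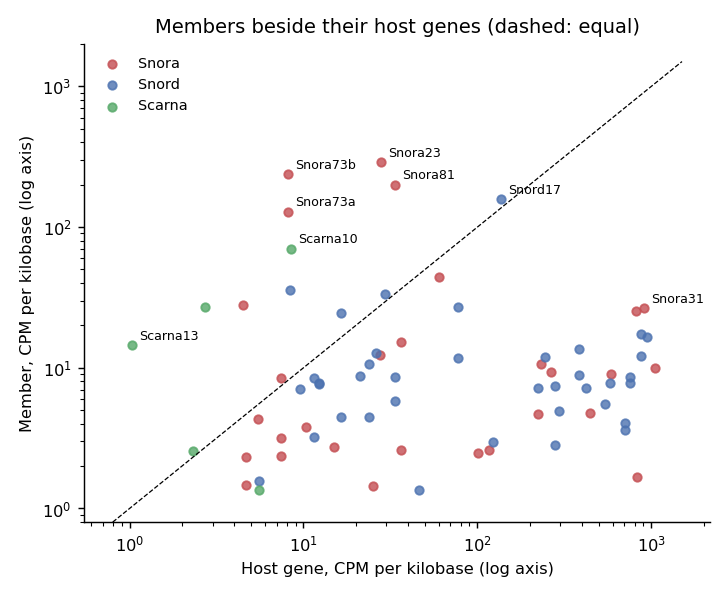
CPM per kilobase of 72 members with 10 or more counts against that of the single gene that contains each of them, both on log axes, with a dashed line at equality. Snora73b, Snora73a, Scarna13 and Snora23 lie above 10 times their host, and 14 members in all are above the line.

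Members of the same host were alike in some genes and differed in others. Of 15 genes that were the single host of 2 or more members with 10 or more counts, 7 had a highest member at least 2 times the lowest per kilobase, and the median of that ratio was 1.86. It was lowest in Wdr43, at 1.02, with Snord92 at 7.80 and Snord53 at 7.64 CPM per kilobase, and highest in Eif4a2, at 34.3. In Eif4a2, Snora81 had 200 CPM per kilobase and Snord2 had 5.82. The ribosomal protein gene Rps3 holds Snord15a at 26.9 CPM per kilobase and Snord15b at 11.8. In Snhg12, Snora16a had 8.52, Snora44 3.15, Snora61 2.34 and Snord99 0.730 CPM per kilobase. Rpl13a holds Snord32a at 7.40 and Snord34 at 2.80 CPM per kilobase, while Snord33 and Snord35a had no count. The Hspa8 gene of the constitutive heat shock chaperone stood at 703 CPM per kilobase, and its members Snord14e, Snord14d and Snord14c at 4.05, 3.64 and 1.17. Only Snord47 of the Gas5 snoRNAs and only Snord22 of the Snhg1 snoRNAs were analysed here, at 6.02 and 1.36 CPM per kilobase.

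Members without a count fell into a large repeat family and scattered single genes. All 17 Snord116 copies had no count, where the limit of 3 counts is 0.0896 CPM in replicate 2 and 0.0818 CPM in replicate 1. If reads shared by several copies were not counted, that limit would not bound their level. These box C/D RNAs come from an imprinted cluster in the Snhg14 transcript and are best known from neurons. Snhg14 itself had 50 counts in replicate 2 and 89 in replicate 1 over all its exons. Every Snord116 copy has near-identical copies, as do 20 other members, among them Snora3, Snora65 and Snora68, and the sources used here do not say how reads that map to several places were treated. Of the other 20 members without a count, Snora35 lies in the serotonin receptor gene Htr2c, which also had no count. In 15 such members with a single host, 8 had a host at 10 CPM or more, among them Snord82 in the nucleolin gene Ncl at 221 CPM. The members without a count were also counted by overlap with exons of other genes. In GENCODE M21 and without the Snord116 copies, 4 of 23 members in an exon of a spliced model had no count, against 10 of 61 outside any exon and 4 of 36 in retained-intron models alone.

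Finally, both libraries were compared member by member. Each gene's counts were tested against the ratio of library totals with an exact two-sided binomial test, adjusted by Benjamini-Hochberg over the 23690 genes with 10 or more counts. The test compares these libraries and no condition, and its p-values measure counting error only. Sex, by the sex-linked genes above, changes with the library. Of the 86 members tested, 5 were higher in replicate 2 (5.81%, beside 16.9% of all genes tested) and 12 were lower (14%, beside 27.2%), so 17 differed in either direction, beside 44.1% of all genes tested. Members have few counts, with a median of 42.5 over both libraries beside 362 for all genes tested. Among the 34 members with a mean of 1 CPM or more, 3 were higher in replicate 2 (8.82%, beside 21.8% of the genes at that level) and 12 lower (35.3%, beside 32.7%). The share of lower members at that level was thus near the background, and the share of higher members was below it. In log2 ratios, replicate 2 over replicate 1, the members had a median of -0.01 beside -0.07 for all genes tested. With TMM or DESeq2 scaling the member median turned to 0.02 and 10 members were lower. The split over all genes depended more on scaling, at 3993 higher and 6443 lower by totals and 5374 higher and 5069 lower with TMM. With edgeR's exact test, which includes a spread of 22.7% between libraries, no member passed an adjusted p of 0.05, where 0.279% of all genes did. Because that spread was estimated from these same libraries, the test counts their differences as noise. A lack of calls by it does not show that the libraries are alike. At an unadjusted p under 0.05 that test gave 3 members, and the smallest adjusted p among members was 0.488.

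All 6 of the most abundant members were lower in replicate 2 by the exact binomial test with scaling by totals, and none by edgeR's. Snord17 lost that call with TMM or DESeq2 scaling. Of all genes with a mean of 1 CPM or more, 32.7% were lower, and the share among genes as abundant as these 6 was not computed. Snora81 had 774 counts in replicate 2 and 1555 in replicate 1, a CPM ratio of 0.545 (exact 95% interval 0.50 to 0.595) with an exact binomial adjusted p of 6.75e-44. Its host Eif4a2 was lower too, with 129 CPM in replicate 2, against 176 CPM in replicate 1. Snora73b had 1328 and 2133 counts, a ratio of 0.682 (0.636 to 0.731), with an adjusted p of 4.09e-27 in the same exact test. Its copy Snora73a had a ratio of 0.839 (0.764 to 0.921), and Snora23 one of 0.820 (0.769 to 0.875). For U3, Snord3a had 1235 counts in replicate 2 and 1735 in replicate 1 and a ratio of 0.780 (0.724 to 0.839). U8 had a lower ratio, with 143 counts of Snord118 in replicate 2 and 293 in replicate 1 and a ratio of 0.535 (0.435 to 0.655).

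The remaining lower members had fewer counts. Snora68 had 58 counts in replicate 2 and 118 in replicate 1, a ratio of 0.539 (0.386 to 0.743). Snora28 had 4.45 and 6.27 CPM, a ratio of 0.710 (0.574 to 0.876), and Snord94 had 127 and 221 counts, a ratio of 0.630 (0.502 to 0.787). Snord15b had 33 counts in replicate 2 and 89 in replicate 1, a ratio of 0.406 (0.264 to 0.612), while its neighbour in Rps3, Snord15a, had 136 and 143 counts and a ratio of 1.04 (0.818 to 1.33). The difference between Snord15b and Snord15a was not tested. Snord17 at 0.893 and Snord89 at 0.652 were called with scaling by totals, and neither was called with TMM or DESeq2 scaling. Snora74a, with a ratio of 0.795, missed the threshold at an exact binomial adjusted p of 0.057.

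The 5 higher members included 1 abundant RNA. Scarna2 had 647 counts in replicate 2 and 537 in replicate 1, a ratio of 1.32 (1.18 to 1.48) with an exact binomial adjusted p of 1.07e-05. Snord104 had 48 and 21 counts and a ratio of 2.50 (1.47 to 4.4). Snora65 had 48 and 26 counts, Snord49b 25 and 12, and Snora36b 17 and 4, so their ratios of 2.02, 2.28 and 4.66 carry wide intervals, up to 19.0 for Snora36b. Medians of the log2 ratio by class were -0.14 for 30 tested Snora genes, 0.01 for 50 Snord genes and 0.21 for 6 Scarna genes. All 6 fibroblast markers were lower and all 6 keratinocyte markers higher in replicate 2 by the same test, under each scaling, although none passed edgeR's. Their part in the member ratios was not tested. The log2 ratios of members and hosts had a rho of 0.04 over the 73 single-host members with 10 or more counts. Members tested had a median of 42.5 counts over both libraries, so counting error can hide a relation between these ratios.

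**Figure D4:**
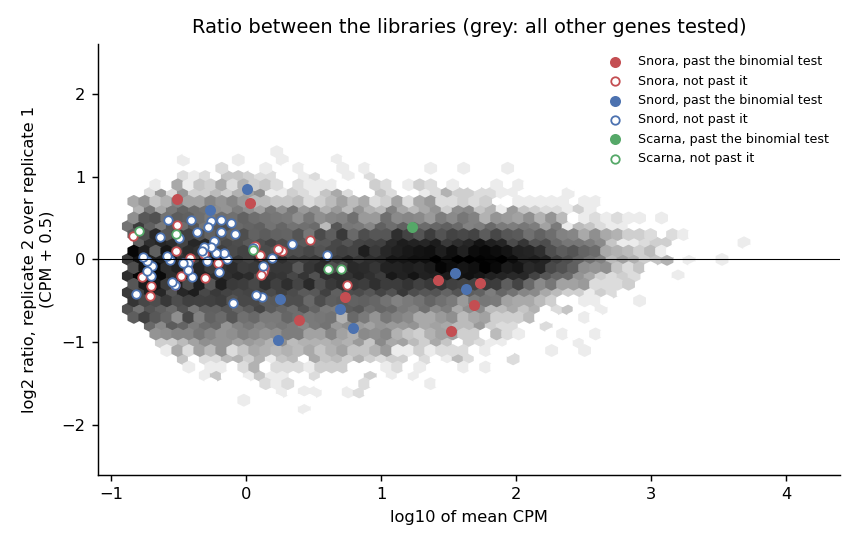
log2 ratio of replicate 2 over replicate 1 on log2(CPM + 0.5) against log10 of the mean CPM, with members as circles, filled where past the exact binomial test, over all other tested genes in grey shading (12 of them lie beyond the axis limit of 2.6). There are 5 filled circles above 0 and 12 below it, and the members of highest level lie below 0.

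The listed genes of core snoRNA-binding proteins and of assembly and Cajal body factors all had RNA at 1 CPM or more in both libraries. The box C/D core consists of the methyltransferase Fbl at 46.8 ± 4.69 CPM, Snu13 at 44.3 ± 1.75 CPM, Nop58 at 35.7 ± 0.715 CPM and Nop56 at 31.8 ± 0.624 CPM. The H/ACA core has the pseudouridine synthase Dkc1 at 21.5 ± 1.85 CPM, Nhp2 at 18.9 ± 2.35 CPM, Nop10 at 10.6 ± 0.384 CPM and Gar1 at 5.35 ± 1.13 CPM. Scaled by length the core genes lay between 5.32 and 35.3 CPM per kilobase for C/D and between 4.13 and 17.0 CPM per kilobase for H/ACA. All 15 assembly and Cajal body genes reached 1 CPM in both libraries, led by the nucleolar phosphoprotein gene Nolc1 at 59.1 ± 10.3 CPM, with the Cajal body scaffold gene Coil at 4.0 ± 0.004 CPM. By the exact binomial test, Fbl was higher in replicate 2 among the 4 C/D core genes and none was lower. Dkc1, Nhp2 and Gar1 were higher among the 4 H/ACA genes and none lower. Of the 15 assembly genes 2 were higher and 1, the cap methyltransferase Tgs1, was lower. Over all genes tested 16.9% were higher and 27.2% lower. With TMM or DESeq2 scaling the core genes kept these calls, but 6 assembly genes were higher and none lower. With TMM 5374 of all 23690 genes tested were higher. By edgeR's exact test no gene of these lists passed.

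The list of other small noncoding RNAs had 23 rows in the files, of which 10 were detected and 7 had no count. It includes rows whose names mark pseudogenes (-ps), among them Rnu3b-ps3, Rnu6-ps2 and Rnu7-ps3 without a count. Levels in the list covered a far wider range than those of the members. Rn7sk, the regulator of the elongation kinase, stood at 63629 CPM per kilobase, and the RNA component of ribonuclease P, Rpph1, at 9392. Rmrp, the related RNA of ribonuclease MRP, had 2735 CPM per kilobase, and the Y RNAs Rny1 and Rny3 had 178 and 159. The highest member per kilobase was Snora23 at 290, followed by Scarna2 at 278 over its 61 deposited bases. The rows of spliceosomal RNAs were low, with Rnu12 at 25.3, Rnu11 at 18.7 and Rnu1a1 at 9.03 CPM per kilobase. Rnu1b1, Rnu1b2, Rnu1b6 and Rnu6 had no count. U1 has several rows, and the treatment of reads that map to several places is not given. These values are thus levels of rows, and the levels of the RNAs themselves cannot be read from them. The RNAs Rn7sk, Rpph1, Rmrp and Rnu12 have deposited lengths of 332, 325, 275 and 150 bases. By the exact binomial test 2 of the list were higher in replicate 2, Terc and Rpph1, and 6 were lower, of which 4 were lower with TMM or DESeq2 scaling, beside 16.9% higher and 27.2% lower of all genes tested. None of the list passed edgeR's exact test.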

How the data were processed

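Gene counts were deposited by the authors as 1 raw count per gene, and the submitters' processing notes name featureCounts and build mm39. The sources used here do not give the aligner, annotation release, strand setting or treatment of multi-mapping reads. Both libraries form 1 group, with the replicate numbers of the labels. The gene length in bases comes from the same deposited files. CPM were computed from library totals, and log2 values with a pseudocount of 0.5 CPM. Genes with 10 or more counts in total were tested with an exact binomial test, with edgeR's exact test (dispersion of an intercept-only fit) as the alternative. TMM factors, DESeq2 size factors, other pseudocounts and filters were tried. Hosts came from the RefSeq table of GRCm38.p6, sequences from GENCODE M21, and near copies (95% identity over 90% of the member) from blastn. The name pattern, lists and tests were chosen with earlier results of these data known. Named were the 10 highest members of each class, detected scaRNAs, the members with the largest called ratios, processing RNAs, members of fixed hosts and the core proteins. Other members were named after their values were seen. Both tests were checked on simulated data. Software was Python 3.11.15, scipy 1.17.1, R 4.3.3, edgeR 4.0.16, DESeq2 1.42.0 and blastn 2.17.0.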

Additional observations from a re-analysis of the deposited data

How the results depend on the processing

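The counts of 5 higher and 12 lower members kept within 1.5 times with TMM scaling, DESeq2 scaling and no filter on low counts, and became 0 and 0 with edgeR's exact test, at an unadjusted p under 0.05 for 3 members. Detected members numbered 62 at 10 counts in both libraries instead of 30, and the Snord genes among them 36, or 23 at 0.5 CPM, instead of 11. The Snora median log2 ratio moved to -0.22 with a pseudocount of 0.1. The Snora minus Snord difference was 0.97 per kilobase, 1.00 and 0.29 with pseudocounts of 0.1 and 1, 0.55 among members with 10 or more counts and, chosen after seeing the data, 0.30 without the Snord116 copies, whose construction adds zeros to the Snord side. Spearman's correlation of level with length was 0.051 per kilobase, 0.32 among members with 10 or more counts and, also chosen later, 0.25 with GENCODE lengths. The causes of the other shifts were not tested. Leaving out either library moved no detection count by over 1.5 times. For levels, shares and the class difference, which are means over 2 libraries, leaving out 1 only gives back the value of the other, and the correlation with length was 0.16 in replicate 2 alone and 0.20 in replicate 1 alone. No paired analysis was possible because the series has 1 group. Depth limits members with few counts, for which a difference was not detectable rather than absent.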
